A study of Mus musculus with 6 samples.

Results

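The matrix metalloprotease genes Mmp2, Mmp3, Mmp9, Mmp10, Mmp11, Mmp13, Mmp14, Mmp16, Mmp19 and Mmp23 were taken by name from an expression table of sorted mouse muscle stromal cells. They are 10 of the 22483 genes in the table, and all 10 were followed in its 6 libraries by subpopulation and state. All 10 also passed the filter on low values that left 15532 genes for testing, although that filter lies close above the floor of the scale and let Mmp11, Mmp16 and Mmp23 pass with few reads. The table has 13 further genes of the family, which were used as a comparison list.

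The cells came from adult Swiss white mice. Acute injury was made with 20 uM cardiotoxin, a toxin from snake venom that destroys muscle fibers, and the injected muscle was taken on day 3, while the untreated muscle of the opposite limb served as control. Cells carrying CD45, CD31 or CD11b were gated out to remove leukocytes, endothelial cells and myeloid cells, and the rest were sorted by CD140a, the receptor encoded by Pdgfra, and by Sca1, encoded by Ly6a. The subpopulations were 3 in number, namely CD140a(-)/Sca1(+), CD140a(+)/Sca1(-) and CD140a(+)/Sca1(+), with 1 QuantSeq 3' mRNA library each in each of the 2 states. No allele or transgene was used, the number of mice behind each library is not given in the sources used here, and the labels name the tibialis anterior while the text of the study names gastrocnemius and soleus for acute injury. The animals of the study received BrdU, a label of dividing cells, each day. All cells, control and injured alike, had been digested with collagenase and dispase and then kept in culture conditions so that surface markers could recover before sorting.

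Matrix metalloproteases are zinc-dependent enzymes that cut collagens, proteoglycans, fibronectin and laminin. Most are secreted as inactive proforms that other proteases open, some are anchored in the membrane, and the tissue inhibitors of metalloproteases (Timps) block the active enzymes. In injured muscle, fibroblasts and the fibro-adipogenic progenitors of the stroma are known as sources of them, together with macrophages and neutrophils.

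Of the 10 genes 3, Mmp13, Mmp3 and Mmp10, lie on the plus strand of chromosome 9 in a cluster of 10 metalloprotease genes that spans 427072 bp (GRCm38, GENCODE M21). Mmp13 is at chr9:7272514-7283331, Mmp3 at chr9:7445822-7455975 and Mmp10 at chr9:7502352-7510240. Each of these gene bodies covers exons, introns and untranslated ends. RefSeq promoter windows of 300 bases (GRCm38.p6) were held for 6 of the 10 genes, Mmp3, Mmp10, Mmp11, Mmp13, Mmp14 and Mmp23. The 100 bases before the start are shown for the 3 clustered genes because these windows hold both motifs searched. Capitals mark TGANTCA, the letters bound by AP-1 factors, and TATAAA, the TATA box, each searched on both strands; no match overlapped another.

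Mmp13 (chr9:7272414-7272513, plus strand): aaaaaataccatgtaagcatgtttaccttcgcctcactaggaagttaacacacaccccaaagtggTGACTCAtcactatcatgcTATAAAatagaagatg
Mmp3 (chr9:7445722-7445821, plus strand): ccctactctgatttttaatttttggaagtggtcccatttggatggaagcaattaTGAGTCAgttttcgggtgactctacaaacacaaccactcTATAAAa
Mmp10 (chr9:7502242-7502341, plus strand): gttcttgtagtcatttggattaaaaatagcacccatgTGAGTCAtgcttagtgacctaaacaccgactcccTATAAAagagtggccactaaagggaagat

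Counted from the RefSeq start, the AP-1 letters began at position -35 in Mmp13, -46 in Mmp3 and -63 in Mmp10. The windows of Mmp11, Mmp14 and Mmp23 held neither motif. Among all 32851 promoter windows of the same length, 7.81% held TGANTCA, 13.6% held TATAAA and 1.54% held both. A match is a run of letters and not evidence of binding.

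The other members are scattered over the genome. Mmp2 lies at chr8:92827291-92853420, Mmp9 at chr2:164940780-164955850, Mmp14 at chr14:54431612-54445364 and Mmp16 at chr4:17852893-18119145. Mmp19 lies at chr10:128790910-128800824. The minus strand genes are Mmp11 at chr10:75923222-75936496 and Mmp23 at chr4:155650655-155653384.

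Levels are given as normalized counts, recovered by inverting the deposited log2 scale. Low values were only partly whole multiples of the value of 1 read, so they are not simply reads divided by a size factor of the library. The depth was estimated at 2094353 to 14173590 reads per library, a ratio of 6.77. The injured CD140a(+)/Sca1(-) library stood apart, with 69.1% of genes listed at 0 against 28.2% to 39.0% in the other 5 libraries, and 928 of the 5274 genes with at least 20 normalized counts in all 5 others were at 0 in it. The sort markers were checked at the RNA level. Among the controls, Pdgfra was highest in the library labelled CD140a(-)/Sca1(+), with 211 normalized counts against 33.6 in CD140a(+)/Sca1(-) and 26.3 in CD140a(+)/Sca1(+), which goes against the label for RNA. After injury it had 335, 203 and 1240.0 in the same order, so it was again above the CD140a(+)/Sca1(-) sort but below the CD140a(+)/Sca1(+) sort. Ly6a followed its label, with 5850.0, 70.4 and 252.8 normalized counts in the same order in controls and 1177, 2.09 and 4098.5 after injury. In the paper's own check of the sorts, control CD140a(+)/Sca1(+) cells were the least enriched. Counts of calls after injury that change when 1 of the 3 pairs is left out are given with that value.

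Endothelial markers, which the CD31 gate should remove, summed over 11 genes to 4552, 3255 and 32404 normalized counts before injury, in the order CD140a(-)/Sca1(+), CD140a(+)/Sca1(-), CD140a(+)/Sca1(+). After injury the sums were 149, 166 and 548. Of the 11 genes 9 were called lower, where 3.46% of all genes tested were, and also 9 without any 1 of the pairs. Fabp4 made up most of the control CD140a(+)/Sca1(+) sum, with 29146 normalized counts. Of 5 Schwann cell markers 4 were also called lower (1 without the CD140a(+)/Sca1(+) pair, 3 without the CD140a(+)/Sca1(-) pair), with sums of 37.9, 1431 and 317 before and 79.6, 52.5 and 31.7 after injury. The endothelial sum was higher in the control library of every pair, whereas the Schwann sum was higher in the control library of the CD140a(+) pairs and lower in that of CD140a(-)/Sca1(+). In bulk samples fewer cells of a type and less RNA per cell cannot be told apart. The 9 stromal and fibro-adipogenic progenitor markers summed to 14748, 8298 and 3794 in controls and to 45587, 44213 and 37202 after injury. Col1a1 and Col1a2, both also counted below as substrates, made up most of each injured sum. They had 12744 and 23272 normalized counts, then 12760 and 26346, then 8114 and 19199, in the same order. The rest did not all rise. In CD140a(-)/Sca1(+) Ly6a went from 5850.0 to 1177 and Gsn from 2280 to 657, while Dcn went from 4139 to 6949. Of the 9, Pdgfra, Lum, Col1a1 and Col1a2 were called higher, where 2.3% of all genes tested were. Without the CD140a(+)/Sca1(-) pair 6 of them were called higher, and without the CD140a(+)/Sca1(+) pair 3 were higher and 2, Gsn and Ly6a, lower. The part of this shift in the metalloprotease values was not tested.

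**Figure D1:**
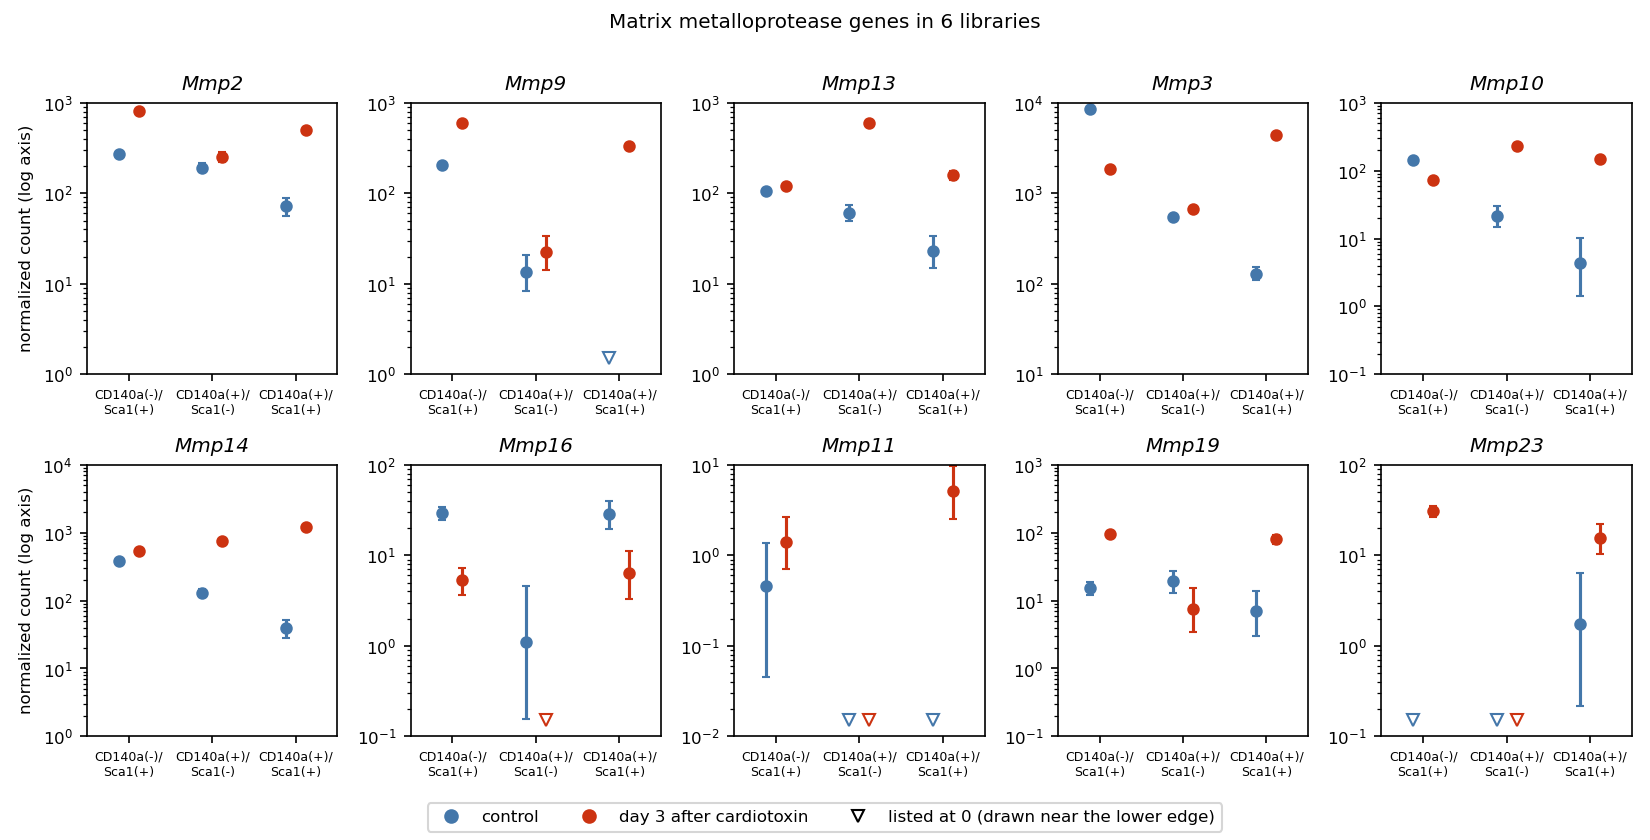
Normalized counts (log axis, a separate range for each gene) of the 10 metalloprotease genes in the control (blue) and day 3 injured (red) library of each subpopulation. Bars are exact 95% Poisson intervals of the estimated reads and cover counting error only, and open triangles mark genes listed at 0. Only for Mmp13 and Mmp14 do all 3 injured libraries lie above all 3 controls.

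In control muscle the CD140a(-)/Sca1(+) library carried most of the metalloprotease RNA. The 10 genes summed to 9589 normalized counts there, to 979.7 in CD140a(+)/Sca1(-) and to 306 in CD140a(+)/Sca1(+). After injury the sums were 4142, 2536 and 6812. Mmp3 alone gave 88.0% of the control CD140a(-)/Sca1(+) sum. Without Mmp3 the sums were 1149, 437 and 176 in controls and 2293, 1868 and 2447 after injury, so for the other 9 genes together every injured library was above every control. Of the 10 genes 6, Mmp2, Mmp3, Mmp9, Mmp10, Mmp13 and Mmp14, shared the control order CD140a(-)/Sca1(+), then CD140a(+)/Sca1(-), then CD140a(+)/Sca1(+), an order found in 21.5% of all genes tested. The endothelial sum was highest in the library at the bottom of that order.

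The injury comparison asked which genes differed between the injured and control libraries over the 3 subpopulations. A gene was called where the unadjusted p was under 0.05 and the change at least 3-fold. Of the 10 genes 3, Mmp14, Mmp9 and Mmp13, were called higher, where 2.3% of all genes were, and 0 of 10 were called lower, where 3.46% of all genes were. The median change of the 10 genes was 1.45 on the log2 scale, and the median of all genes tested was -0.33. After Benjamini-Hochberg adjustment over all genes 0 genes passed 0.05 in limma (lowest adjusted p = 0.192), while 1241 genes, among them the 4 metalloproteases Mmp2, Mmp9, Mmp13 and Mmp14, had an unadjusted p under 0.05. With 1 library for each subpopulation and state, these p-values measure only the spread among the 3 subpopulations. Every injured library was above every control for 2 of the 10 genes, Mmp13 and Mmp14, against 4.18% of all genes, and below every control for 0 of 10, against 11.2%.

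The calls changed with the pair left out. Without the CD140a(+)/Sca1(+) pair 0 of the 10 genes were called, with changes of 1.47 for Mmp14, 1.0 for Mmp9 and 1.63 for Mmp13 (log2), the last still above 3-fold but with a p over the limit. Without the CD140a(-)/Sca1(+) pair 3 were called, Mmp10, Mmp13 and Mmp14, and without the CD140a(+)/Sca1(-) pair 5 were, Mmp2, Mmp9, Mmp14, Mmp19 and Mmp23. Mmp14 was called in the full fit and in both of the latter. Over all 15532 genes tested 357 were called higher in the full fit. The count was 183 without the CD140a(+)/Sca1(+) pair, 401 without the CD140a(-)/Sca1(+) pair and 456 without the CD140a(+)/Sca1(-) pair. Scaling each library to the same 75th percentile of its values above 0 left 0 of the 10 called. The same held on log2 of the normalized count plus 0.5, without the filter and without moderated variances. Over all genes 164, 243, 181 and 114 were called higher in these fits, in the same order. With quantile normalization and with a variance trend 4 of the 10 were called higher, and 435 and 364 over all genes.

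**Figure D2:**
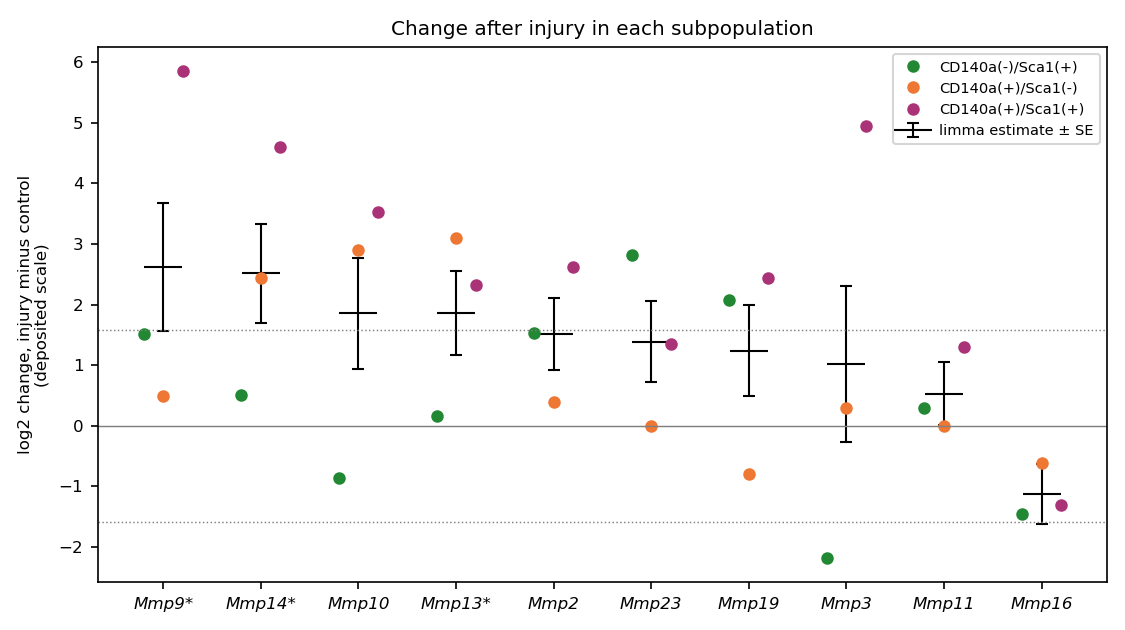
Change of each gene after injury on the deposited log2 scale, with 1 point per subpopulation (1 library against 1) and the limma estimate with its standard error in black. Dotted lines mark a 3-fold change and stars the 3 called genes; points of Mmp3, Mmp10 and Mmp19 lie on both sides of 0.

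The gelatinases Mmp2 and Mmp9 cut denatured collagen and the collagen IV of basement membranes. Mmp2 had 275, 191 and 71.9 normalized counts in the control CD140a(-)/Sca1(+), CD140a(+)/Sca1(-) and CD140a(+)/Sca1(+) libraries. After injury it had 816, 253 and 504. Each subpopulation was higher after injury than before, but the groups overlapped, since the injured CD140a(+)/Sca1(-) library was below the control CD140a(-)/Sca1(+) library. The within-pair folds were 2.97 (95% counting interval 2.81 to 3.15), 1.33 (1.12 to 1.57) and 7.0 (5.61 to 8.95). The fitted change was 1.52 ± 0.60 (log2, SE; limma, Benjamini-Hochberg adjusted p = 0.618), under the 3-fold limit, so Mmp2 was not called.

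Mmp9, also a product of neutrophil granules, reached 204 normalized counts among controls in CD140a(-)/Sca1(+), stood at 13.5 in CD140a(+)/Sca1(-) and was listed at 0 in CD140a(+)/Sca1(+). After injury it had 605, 22.6 and 330.1. It was therefore high only in the Sca1(+) sorts after injury, and in controls only in CD140a(-)/Sca1(+). The fold was 2.97 (2.78 to 3.18) in CD140a(-)/Sca1(+). It was 1.67 (0.885 to 3.18) in CD140a(+)/Sca1(-), an interval that includes no change. In CD140a(+)/Sca1(+) it was at least 125-fold against a floor of 3 reads in the control library, counting error of the injured reads aside. The fit called it higher by 2.62 ± 1.05 (log2, SE; limma, adjusted p = 0.623), from a mean of 72.5 ± 114 to 319 ± 292 normalized counts (SD, n = 3). The fitted value uses the floor of the scale for the library at 0 and is not a bound.

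Leukocyte genes were read beside Mmp9. S100a9, a neutrophil gene, had 185 and 13.5 normalized counts in the 2 control libraries where Mmp9 was found, 0 in the one where Mmp9 was at 0, and 0 in all 3 injured libraries. Its fellow S100a8 went from 111 to 5.55 in the CD140a(-)/Sca1(+) pair, where Mmp9 was higher, and from 10.9 to 0 in CD140a(+)/Sca1(-). In the CD140a(+)/Sca1(+) pair S100a8 went from 0.883 to 7.42, in the same direction as Mmp9. Ptprc, which encodes CD45, had 2.5, 0 and 0.533 normalized counts after injury. Over all 18 leukocyte and myeloid markers the sums were 728, 217 and 88.9 in controls and 395, 889 and 256 after injury. Of 15 tested, Lyz2, a lysozyme of myeloid cells, was called higher and S100a9 lower, where 2.3% and 3.46% of all genes tested were. Without the CD140a(-)/Sca1(+) pair S100a9 was not called and Fcer1g was called higher, and without the CD140a(+)/Sca1(+) pair S100a8 was called lower as well. In the injured CD140a(-)/Sca1(+) and CD140a(+)/Sca1(+) libraries, where Mmp9 was highest, Ly6g and Elane were at 0, but Lyz2 had 176 and 74.2 normalized counts, Fcer1g 23.8 and 13.2 and Itgam 22.5 and 8.48. The part of leukocytes in the Mmp9 values was not tested.

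**Figure D3:**
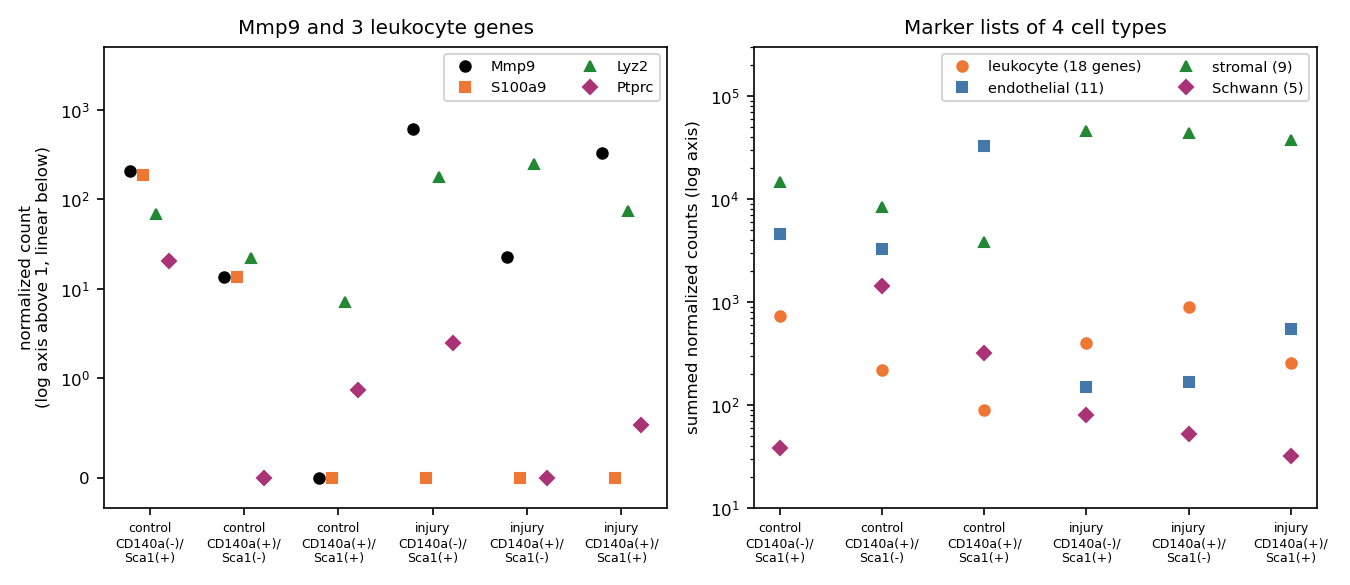
Left, normalized counts of Mmp9, S100a9, Lyz2 and Ptprc in each library (log axis above 1, linear below). Right, summed normalized counts (log axis) of leukocyte, endothelial, stromal and Schwann cell marker lists. Mmp9 reaches 605 in an injured library, S100a9 is at 0 and Lyz2 between 74.2 and 249 in the injured libraries, and the endothelial sum is highest, 32404, in the control CD140a(+)/Sca1(+) library.

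Mmp13 is collagenase 3, which opens the triple helix of fibrillar collagens. It had 106, 60.4 and 23.0 normalized counts in controls, in the order CD140a(-)/Sca1(+), CD140a(+)/Sca1(-), CD140a(+)/Sca1(+), and 120.2, 599.7 and 157 after injury. The groups did not overlap, but the highest control and the lowest injured library, both CD140a(-)/Sca1(+), had counting intervals that did (97.7 to 115 and 112 to 129). Unlike Mmp9, its highest level was in injured CD140a(+)/Sca1(-), with a fold of 9.93 (7.98 to 12.5), against 6.86 (4.59 to 10.7) in CD140a(+)/Sca1(+) and 1.13 (1.01 to 1.26) in CD140a(-)/Sca1(+). The mean went from 63.2 ± 41.7 to 292 ± 267 (SD, n = 3), a change called at 1.86 ± 0.69 (log2, SE; limma, adjusted p = 0.592). The injured CD140a(+)/Sca1(-) library is the one with 69.1% of genes at 0. Without that pair the change was 1.24 and was not called. The same library had the highest sum of the 18 leukocyte and myeloid markers, 889. Tyrobp went from 0 to 222 in that pair and Cd68 from 5.04 to 114, while Laptm5 went from 22.2 to 0. Of the 18 markers 11 were at 0 after injury. Mmp10 and Mmp27 were also highest there, and the part of myeloid cells in these values was not tested.

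The stromelysins cut proteoglycans, fibronectin and laminin and activate other proforms. Mmp3, stromelysin 1, was the member with the most reads. Its control libraries had 8439.5, 543 and 129.8 normalized counts, in the order CD140a(-)/Sca1(+), CD140a(+)/Sca1(-), CD140a(+)/Sca1(+), and the injured libraries 1849, 668 and 4365. The library highest in controls was no longer highest after injury, and the groups overlapped widely. Mmp3 was 4.56-fold lower in injured CD140a(-)/Sca1(+) (injury over control 0.219, 0.215 to 0.223), close to level in CD140a(+)/Sca1(-) at 1.23 (1.11 to 1.36), and 33.6-fold higher (28.6 to 39.9) in CD140a(+)/Sca1(+). Changes of opposite sign left a fitted mean of 1.02 ± 1.29 (log2, SE; limma, adjusted p = 0.784). The sign of that mean turned to -0.94 without the CD140a(+)/Sca1(+) pair.

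Ly6a, the gene behind the Sca1 gate, differed in the same direction as Mmp3 in the Sca1(+) sorts and in the opposite direction in CD140a(+)/Sca1(-), where it was 70.4 before and 2.09 after injury. It was 5850.0 before and 1177 after injury in CD140a(-)/Sca1(+), and 252.8 before and 4098.5 after in CD140a(+)/Sca1(+). The highest Mmp3 library exceeded the lowest 65.0-fold among controls and 6.53-fold after injury. Over the 6584 genes above 0 in all 6 libraries the median of this ratio went the other way, from 2.25 to 3.29.

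Mmp10, stromelysin 2, in the same chromosome 9 cluster as Mmp3, had 142, 21.2 and 4.41 normalized counts in controls and 73.2, 228 and 147 after injury. Like Mmp3 it was lower after injury in CD140a(-)/Sca1(+), with a fold of 0.517 (0.461 to 0.579). In CD140a(+)/Sca1(-), where Mmp3 barely moved, Mmp10 was 10.7-fold higher (7.44 to 16.0), and in CD140a(+)/Sca1(+) 33.3-fold higher (14.1 to 103), from an estimated 5 reads. The fitted change of 1.86 ± 0.92 (log2, SE) did not pass (limma, adjusted p = 0.650). The ratio of the highest to the lowest library was 32.1 in controls and 3.11 after injury.

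Mmp11, stromelysin 3, which furin opens before secretion, was barely detected. It had 0.460 normalized counts in control CD140a(-)/Sca1(+) and was at 0 in the other 2 controls. After injury it had 1.40, 0 and 5.08, from 10, 0 and 10 estimated reads. In CD140a(+)/Sca1(+) this is at least 1.92-fold higher against the floor of 3 reads, counting error of the injured reads aside. The counting intervals of that pair overlapped, at 0 to 3.26 before and 2.54 to 9.74 after injury. In CD140a(-)/Sca1(+) the interval of the fold, 0.831 to 36.6, includes no change. The fitted change was 0.53 ± 0.52 (log2, SE; limma, adjusted p = 0.739).

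The membrane-anchored members work at the cell surface. Mmp14 cuts fibrillar collagen around the cell and, with Timp2 as adaptor, activates the proform of Mmp2. It had 378, 130.4 and 39.1 normalized counts in controls, in the order CD140a(-)/Sca1(+), CD140a(+)/Sca1(-), CD140a(+)/Sca1(+), and 543, 757 and 1202 after injury. The groups did not overlap, and the order of the subpopulations was reversed after injury. The folds were 1.44 (1.36 to 1.52), 5.81 (4.97 to 6.81) and 30.7 (23.0 to 42.7). The mean went from 182 ± 175 to 834 ± 336 (SD, n = 3), and the fit called it higher by 2.51 ± 0.82 (log2, SE; limma, adjusted p = 0.557). The ratio of the highest to the lowest library was 9.66 in controls and 2.21 after injury. Timp2, the adaptor, had 1.68 ± 0.70 (log2, SE) and missed the call (limma, adjusted p = 0.624), but was called higher without the CD140a(+)/Sca1(-) pair. It is outside the naming rule and was added after its value was seen.

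Mmp16, a second membrane-type enzyme, was the only member with a lower value after injury in all 3 subpopulations. Controls had 29.3, 1.09 and 28.5 normalized counts and injured libraries 5.28, 0 and 6.30. The groups overlapped through the control CD140a(+)/Sca1(-) library, which held an estimated 2 reads. The folds were 0.180 (0.122 to 0.260) in CD140a(-)/Sca1(+) and 0.221 (0.106 to 0.449) in CD140a(+)/Sca1(+), or 5.55 and 4.52 times lower. The fitted change of -1.12 ± 0.50 (log2, SE; limma, adjusted p = 0.636) did not pass. On the scale of the file these folds came out smaller, -1.45 and -1.31, because that scale compresses low counts.

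Mmp19 and Mmp23 had few reads in controls and more in both Sca1(+) sorts after injury. Mmp19, a soluble enzyme that cuts basement membrane proteins, had 15.3, 19.5 and 7.08 normalized counts in controls and 97.4, 7.56 and 80 after injury. It was 6.39-fold higher (5.09 to 8.19) in CD140a(-)/Sca1(+) and 11.3-fold higher (5.61 to 26.7) in CD140a(+)/Sca1(+). In CD140a(+)/Sca1(-) the fold was 0.387 (0.161 to 0.910), from 30 to 8 estimated reads. The fit gave 1.24 ± 0.75 (log2, SE; limma, adjusted p = 0.682), and 2.26, called, without the CD140a(+)/Sca1(-) pair.

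Mmp23, an atypical membrane-bound member without the hemopexin domain of most relatives, was at 0 in 2 controls and at 1.77 normalized counts, an estimated 2 reads, in CD140a(+)/Sca1(+). After injury it had 30.8, 0 and 15.4. In CD140a(-)/Sca1(+) it was at least 54.8-fold higher against the floor of 3 reads, counting error of the injured reads aside. The fold in CD140a(+)/Sca1(+) was 8.70 (2.20 to 75.3). It was not detectable in CD140a(+)/Sca1(-) in either state. The fit gave 1.39 ± 0.66 (log2, SE; limma, adjusted p = 0.649), and 2.08, called, without the CD140a(+)/Sca1(-) pair.

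Counted within each subpopulation, with 1 library against 1 and no test, the 3-fold changes on the deposited scale differed in number. In CD140a(-)/Sca1(+) 2 of the 10 genes, Mmp19 and Mmp23, were 3-fold higher, against 1.97% of all genes, and Mmp3 was 3-fold lower, against 4.35%. In CD140a(+)/Sca1(-) 3 were higher, Mmp10, Mmp13 and Mmp14, against 8.31%, and 0 were lower, against 29.4% of all genes in this library with many zeros. In CD140a(+)/Sca1(+) 7 were higher, Mmp2, Mmp3, Mmp9, Mmp10, Mmp13, Mmp14 and Mmp19, against 10.4%, and 0 were lower, against 6.07%. The last pair is also the one whose control library had the highest endothelial sum and, per the paper, the least enriched sort. The part of sort purity in these folds was not tested.

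Subpopulations were also compared directly, each against the mean of the other 2 with state as block. In CD140a(-)/Sca1(+) 1 of the 10 genes, Mmp9, was called higher, against 1.33% of all genes, and 0 lower, against 0.283%. Its difference was 3.35 ± 1.12 (log2, SE; limma, adjusted p = 0.998), and it was not called without the control CD140a(-)/Sca1(+) library, at 2.53, or without the injured one, at 4.18. Mmp3 showed 2.51 ± 1.36 (log2, SE) without a call (limma, adjusted p = 0.998). In CD140a(+)/Sca1(-) 0 were called higher, against 0.657%, and 1 lower, Mmp16, against 3.73%. Mmp16 differed there by -1.75 ± 0.53 (log2, SE; limma, adjusted p = 0.615). Its call was lost without any 1 of the 3 control libraries, at -1.63, -1.37 and -1.69 in the order used above, and without the injured CD140a(-)/Sca1(+) library, at -1.88. Without the control CD140a(+)/Sca1(-) library, this subpopulation was left with its injured library alone, in which 69.1% of genes were at 0. Other members called in that fit therefore rest on 1 library. In CD140a(+)/Sca1(+) 0 were called higher, against 1.32%, and 0 lower, against 0.47%.

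The enzymes are held in check by inhibitors, and genes of this list were called in both directions. Of 9 inhibitors and matricellular partners, 2 were called higher, Timp1 and Thbs2, and 2 lower, Timp3 and Timp4, with a median of 1.58 (log2). Over all genes tested 2.3% were called higher and 3.46% lower. Timp1, a secreted inhibitor, had 229, 77.5 and 13.3 normalized counts in controls, in the order used above, and 976, 1097 and 1090.2 after injury. The 3 injured libraries were nearly level and all above the controls, with a change of 3.74 ± 0.75 (log2, SE; limma, adjusted p = 0.383). Thbs2, a thrombospondin that helps clear Mmp2, changed by 3.53 ± 0.52 (log2, SE). Timp3, the inhibitor that binds to the matrix, had 709, 2398 and 703 in controls and 300, 529.8 and 167 after injury, a change of -1.79 ± 0.50 (log2, SE). Timp4 changed by -2.48 ± 0.51 (log2, SE), from 64.5, 16.8 and 126 to 7.57, 0 and 6.22 normalized counts. Without the CD140a(+)/Sca1(-) pair 4 genes of the list were called higher, with Timp2 and Sparc added, and without the CD140a(+)/Sca1(+) pair Timp3 was not called.

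Among 13 tested activators and docking partners 2 were called higher, against 2.3% of all genes, and 0 lower, against 3.46%, with a median of 0.10 (log2). They were Plat, the tissue plasminogen activator, which makes the plasmin that opens several metalloprotease proforms, at 1.98 ± 0.49, and Pcsk5, a proprotein convertase, at 2.02 ± 0.47 (log2, SE). Both were also called without any 1 of the pairs; Cldn1 was called lower without the CD140a(-)/Sca1(+) pair and Itgb3 without the CD140a(+)/Sca1(+) pair. With each library scaled to the same 75th percentile of its values above 0, neither was called and Cldn1 was called lower.

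Of 14 tested substrates 7 were called higher, against 2.3% of all genes, and 0 lower, against 3.46%, with a median of 1.97 (log2). These were the fibrillar collagens Col1a1 at 3.31, Col1a2 at 3.71 and Col3a1 at 4.62, the matrix proteins Fn1 at 2.64, Eln at 3.56 and Vcan at 3.03, and Spp1, osteopontin, at 2.79 (log2). Col3a1, the collagen of loose repair tissue, had 882, 682 and 376 normalized counts in controls and 24650, 9978 and 14654 after injury, with no overlap. All 7 were also called without any 1 of the pairs. With each library scaled to the same 75th percentile of its values above 0, these 7 were called higher and 2, Col4a1 and Col4a2, lower.

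Factors and ligands known to act on metalloprotease promoters were also counted, beside the 2.3% of all genes called higher and 3.46% called lower. Of 12 AP-1 and ETS factors 0 were called higher and 2 lower, Jund at -2.66 ± 0.78 and Ets2 at -1.94 ± 0.76 (log2, SE), with a list median of -0.23. Both were at or near 0 in the injured CD140a(+)/Sca1(-) library, with 0 and 0.961 normalized counts, and without that pair Jund alone was called. Without the CD140a(+)/Sca1(+) pair 0 of the 12 were called. Of 12 tested cytokines and growth factors Pdgfa was called higher at 1.78 ± 0.56 and Pdgfb lower at -1.69 ± 0.52 (log2, SE), with a list median of 0.02. Without the CD140a(+)/Sca1(-) pair the called genes of that list were Pdgfb and Fgf2, without the CD140a(-)/Sca1(+) pair Pdgfa alone, and without the CD140a(+)/Sca1(+) pair 0.

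Among the 8 tested of the 13 other family genes 0 were called higher, against 2.3% of all genes, and 1 lower, against 3.46%. The list median was -0.07 (log2). The gene called lower was Mmp15, a membrane-type enzyme, with 15.0, 27.0 and 21.2 normalized counts in controls and 3.36, 0 and 4.24 after injury. It changed by -1.65 ± 0.56 (log2, SE; limma, adjusted p = 0.560). The call was lost without any 1 of the pairs. Mmp12 and Mmp27, also in the chromosome 9 cluster, were added after their values were seen. Mmp12, the macrophage elastase between Mmp13 and Mmp3, had 67.7, 204 and 15.0 normalized counts in controls and 55.3, 128 and 52.1 after injury, so it was highest in CD140a(+)/Sca1(-) in both states. Mmp27 had 70.2 in injured CD140a(+)/Sca1(-) and at most 8.70 elsewhere. Mmp7, in the same cluster, was at 0 in all 6 libraries, and Mmp1a, Mmp1b and Mmp20 had reads in 3, 2 and 2 libraries.

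**Figure D4:**
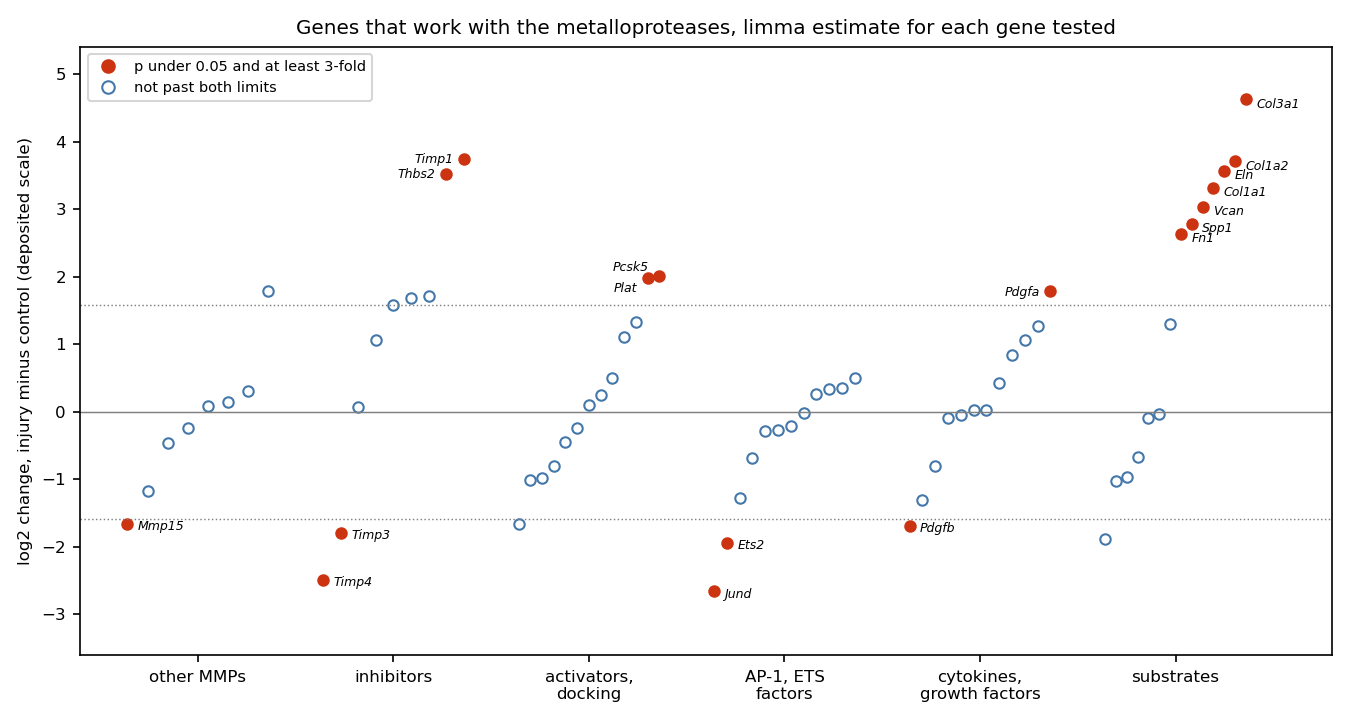
Limma estimate of the change after injury (log2, deposited scale) for each tested gene of 6 lists that work with the metalloproteases, sorted within each list. Red points passed p under 0.05 and a 3-fold change (dotted lines). Of 14 substrates 7 did so upward, whereas the inhibitors had 2 called in each direction. Over all genes tested 2.3% were called higher and 3.46% lower.

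The genes with the most similar pattern were sought for the 3 members with the highest mean level. Likeness was the root mean square difference of log2 values over the 6 libraries, after subtracting each gene's mean, among the 3461 genes whose mean reached 100 normalized counts. For Mmp14 these were Lhfpl2 at 0.27, Loxl3, a lysyl oxidase relative, at 0.33 and Pdpn, podoplanin, at 0.37. Loxl3 had 328, 101 and 50.3 normalized counts in controls and 475, 414 and 1046 after injury, so that like Mmp14 its lowest library was control CD140a(+)/Sca1(+) and its highest the injured one. For Mmp2 they were Acsl4 at 0.25, Fstl1, a secreted glycoprotein, at 0.29 and Rpn2 at 0.32. For Mmp3 they were Rnf213 at 0.54, Adora2b, an adenosine receptor, at 0.61 and Cfb, complement factor B, at 0.63, a looser match than for the other 2 members. Cfb had 1316, 28.1 and 5.09 normalized counts in controls and 466, 137 and 569 after injury.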

How the data were processed

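The authors aligned the 3' reads with STAR to GRCm38 (mm10) and normalized the counts with DESeq2, per the submitters' processing notes. Each deposited value is on a log2 scale, from the variance stabilizing transformation the authors applied. It was inverted to normalized counts. Of low values, 54.6% to 61.8% per library lay within 0.02 of a whole read, so reads are estimates, and count tests were not run. Poisson and binomial intervals (95%, exact) describe counting error alone. The filter required an 80th percentile of at least 8 after raising 2 to the deposited values. Injury was tested in R 4.3.3 by limma 3.58.1, blocking on subpopulation (prior degrees of freedom 4.11, residual 2), on the deposited log2 values, since the file holds no counts. Benjamini-Hochberg adjustment covered the 15532 genes tested. Scripts were tested on simulated data, and used Python 3.11.15. Members and lists were chosen with earlier results of these data known. Named genes were the 10 members, list genes that passed the call or, where none passed, up to 4 with the highest mean, and the 3 genes closest in pattern to each of the 3 members with the highest mean. Of 22483 identifiers, 22453 were named from GENCODE M21 or a gene name table. Alternatives changed the pseudocount, filter, scaling, block and variance prior, and left out libraries. List alternatives were chosen after seeing the data, namely the lists without each pair and under other scalings. Pericyte, muscle and tendon markers were also counted, beside 2.3% of all genes called higher and 3.46% lower. Of 8, 7 and 5 tested, Cspg4 and Thbs4 were called higher, and Rgs5, Myh11 and Notch3 lower. Without the CD140a(-)/Sca1(+) pair the pericyte markers called were Rgs5 and Myh11, both lower. Without the CD140a(+)/Sca1(+) pair they were Rgs5, Myh11 and Kcnj8, all lower. The result of 1 gene of a list is not reported here.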

Additional observations from a re-analysis of the deposited data

Results flagged for a closer look

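Mmp3, Mmp10 and Mmp19 changed in opposite directions in different subpopulations, on the deposited log2 scale. The differences between subpopulations were not tested, because each rests on 1 library against 1. Mmp3 changed by -2.18 in CD140a(-)/Sca1(+), by 0.29 in CD140a(+)/Sca1(-) and by 4.95 in CD140a(+)/Sca1(+). Mmp10 changed by -0.86, 2.91 and 3.53 in the same order. Mmp19 changed by 2.08, -0.80 and 2.44, and its lower value is from the library with 69.1% of genes at 0.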

How the results depend on the processing

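Of 110 refits of the 10 injury changes (11 alternatives for each gene), 83 kept their direction and side of the call, 20 lost the call and 6 gained it. The last 1 turned, Mmp3 at -0.94 without the CD140a(+)/Sca1(+) pair (up to 2.62 with another pair left out). All 20 losses fell on Mmp9, Mmp13 and Mmp14, the only genes with a call to lose. Most of the 83 were refits of uncalled genes that stayed uncalled. The 3 genes called after injury became 1 on log2 of the normalized count plus 1 and 2 without the block. They became 0 on log2 plus 0.5, without a filter, with 75th percentile scaling and with the unmoderated test. With quantile normalization they became 4, Mmp19 added, and with a variance trend 4, Mmp10 added. Leaving out 1 pair gave 0 to 5. Over all genes the 894 calls became 426 without a filter and 294 in the unmoderated test, and 746 to 902 with a pair left out. The 1 gene called in CD140a(-)/Sca1(+) became 0 on log2 plus 0.5, without a filter, without the block and unmoderated, 2 with a variance trend, and 0 to 2 with a library left out. The 1 gene called in CD140a(+)/Sca1(-) became 0 with quantile normalization, 2 with a trend and 0 to 4 with a library left out. The 0 called in CD140a(+)/Sca1(+) became 0 to 2 with a library left out. The share of higher calls over all genes was 39.9%, and 25.8%, 21.1%, 13.1% and 47.0% with log2 plus 1, log2 plus 0.5, 75th percentile scaling and quantile normalization, where the median change of all genes was -0.33, -0.58, -0.73, -0.59 and -0.14. It was 52.5% without the CD140a(+)/Sca1(-) pair and 24.5% without the CD140a(+)/Sca1(+) pair. The causes were not tested. Rescaling libraries to equal totals moved 4 of 60 levels beyond their counting interval, by factors of 0.942 to 1.03 over all levels. No paired analysis beyond the subpopulation block was possible because each subpopulation has 1 library in each state. Depth limits the values of Mmp11, Mmp16 and Mmp23 most, with 0 to 10, 0 to 156 and 0 to 211 estimated reads.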
